A study of Danio rerio with 5 samples.

Results

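The muscle actin isoforms and transgelin were followed in border zone cardiomyocytes, the heart muscle cells beside a cardiac wound, through the first week of zebrafish heart regeneration. They are 6 of the 17982 gene rows with a count, chosen by identifier: actc1a (ENSDARG00000042535), actc1c (ENSDARG00000076126), a pair of rows named ACTA1 (ENSDARG00000055618 and ENSDARG00000036371), acta2 (ENSDARG00000045180) and the row of TAGLN with the identifier ENSDARG00000045408. The ACTA1 row ENSDARG00000055618 held more counts on every plate and is called the major ACTA1 row here, and ENSDARG00000036371 the minor ACTA1 row. In upper case, a name is the human symbol that the name table gives to the zebrafish identifier.

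Adult zebrafish labelled with the TL genotype, carrying the TgBAC(nppa:mCitrine) reporter per the study's methods, received a cryo-injury with a copper probe at the tip of the ventricle, and cells were collected at 1, 3 or 7 days post-cryo-injury (dpci). The reporter is driven by nppa, a natriuretic peptide gene of stressed heart muscle, so the sort kept cells that use this promoter, and every group carries injury and reporter alike. Uninjured hearts were not analysed here. The protocol text that the plates share also names a myl7:GFP sort, myl7 being a heart muscle light chain gene, while it ties the plates of 1, 3 and 7 dpci to nppa:mCitrine. Each plate had 384 wells with 1 cell per well. There was 1 plate each for 1 and 3 dpci and 3 plates for 7 dpci, given below as plates 1 to 3, and plate order means the order of times and then of these plates. Nothing in the labels ties a plate to its fish. The p-values therefore measure the spread between plates, which may be technical.

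Actin makes up the thin filaments that myosin pulls on when muscle shortens. Vertebrates carry separate actin genes for heart muscle (ACTC1), skeletal muscle (ACTA1) and smooth muscle (ACTA2), whose proteins are nearly alike, next to the cytoplasmic actins that every cell uses. In mammals the embryonic heart uses skeletal and smooth muscle actin beside cardiac actin, and the adult heart relies mostly on cardiac actin. Transgelin (TAGLN), a small actin-binding protein of the calponin family, is a marker of smooth muscle and of the early heart tube.

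Molecules were counted as unique molecular identifiers (UMIs) at the 3′ ends of transcripts, so the counts do not scale with gene length. Levels set side by side between paralogs still depend on how reads matching several of them were assigned, which is not known here. After removal of spike-ins and mitochondrial genes, 1175 of 1920 wells held at least 500 UMIs and were used as cells. The plate of 1 dpci gave 283 cells, that of 3 dpci 268, and those of 7 dpci 169, 230 and 225. These cells held 282358 UMIs on plate 1 of 7 dpci, the shallowest, and up to 1238176 at 1 dpci, with 1023 to 2700 UMIs in the median cell. Levels are given as CPM, UMIs of a gene per 1000000 of the plate's total over the genes tested after TMM scaling, which assumes that most genes do not differ between plates. Over all genes tested the log2 fold change had a median of -0.13 at 7 against 1 dpci and -0.09 against 3 dpci, and -0.85 and -0.69 with plain totals in place of TMM. Clustering gave 5 cardiomyocyte-like clusters with 1114 of the cells, an unnamed cluster of 35 cells, and a macrophage-like cluster of 26 cells. The unnamed cluster had raised endothelial (8), epicardial or fibroblast (7) and smooth muscle or mural markers (4). In the macrophage-like cluster 4 smooth muscle or mural markers were raised as well. The last 2 clusters lay mostly on the early plates (22 and 13 cells at 1 dpci, 11 and 10 at 3 dpci, and 2 and 3 at 7 dpci). At 1 dpci their cells had median depths of 6136 and 19787 UMIs, against 2700 for the plate. They therefore weigh more in that plate's sums than in its count of cells. Each test was repeated in cardiomyocyte-like cells alone. Within that class, cluster 2 held 230 of the 248 cells of 1 dpci, clusters 4 and 5 held 111 and 75 of the 247 of 3 dpci, and clusters 1 and 3 held most cells of 7 dpci. The genes most raised in single clusters include actc1c, acta2 and TAGLN. Of the members, the minor ACTA1 row and TAGLN were among the 500 variable genes used for clustering. Levels between clusters are therefore not given as results. Fewer cells of a type and less RNA per cell cannot be told apart in plate sums. Spike-ins took 30.11% of the UMIs of all wells at 1 dpci and 34.56% at 3 dpci. On the plates of 7 dpci they took 43.51%, 54.6% and 55.45%. Levels here are shares of the gene UMIs kept and were not scaled to spike-ins. A fold change therefore does not give the change in molecules per cell. The plates of 7 dpci were sequenced in other runs than those of 1 and 3 dpci, so run and time cannot be told apart.

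actc1a, the cardiac actin gene, was the most abundant of the actin rows on every plate but that of 3 dpci, and it rose by 7 dpci. It held 9937 UMIs or 6184 CPM at 1 dpci and 6082 UMIs or 6405 CPM at 3 dpci. The plates of 7 dpci held 5710, 24832 and 20082 UMIs of actc1a, which is 22965, 45563 and 38019 CPM, with a mean of 35516 ± 11505 (SD, n = 3). All 3 plates of 7 dpci lay above both early plates, and the lowest of them was plate 1, the shallowest. How many of all genes order the plates in such a way was not counted. Such orders, here and for the other rows and ratios below, are therefore only a description. The log2 fold change of actc1a was 2.52 ± 0.39 (SE) against 1 dpci, a 5.74-fold difference (edgeR quasi-likelihood test with Benjamini-Hochberg adjustment over 5624 genes, adjusted p = 0.00946). Against 3 dpci it was 2.47 ± 0.39, a 5.55-fold difference (adjusted p = 0.0235 in the same edgeR fit). In cardiomyocyte-like cells alone the log2 fold changes of actc1a were 1.84 and 2.09, and the edgeR adjusted p-values, 0.0701 and 0.0753, missed the threshold of 0.05. With plain totals in place of TMM actc1a gave 1.78 and 1.85, still called (edgeR adjusted p = 0.0208 and 0.0394), and in cardiomyocyte-like cells with plain totals 1.29 and 1.62, not called (edgeR adjusted p = 0.0913 and 0.0683). It was called in 12 and 11 of the 15 other settings, and against 3 dpci the call was also lost in cells of at least 1000 UMIs (2.41, edgeR adjusted p = 0.0601). As a mean over cells, with no test, its log2 ratio was 1.60 and 1.84.

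With an adjusted p under 0.05 as the call, 3 of the 6 members were called higher at 7 dpci against 1 dpci (actc1a, actc1c and acta2), and the same 3 against 3 dpci; none was called lower. Over all 5624 genes tested, 421 were called against 1 dpci, which is 7.49% (157 higher, 2.79%, and 264 lower, 4.69%). Against 3 dpci 105 genes were called, 1.87% of those tested (36 higher, 0.64%, and 69 lower, 1.23%). All 6 members passed the filter of a mean of 10 CPM, taken before TMM scaling, and actc1c passed through its 7 dpci plates alone. Its call is therefore no support, and the count to read against these shares is 2 of 5. Of the 2, acta2 passed on the early plates as well, but from only 10 and 12 UMIs. Its 6.22 and 12.6 CPM there lie near the filter. The comparisons share the 7 dpci plates, and all calls of both were lost without plate 2 of 7 dpci. That edgeR fit called 0 genes in either. At an unadjusted p under 0.05 it had 288 genes higher and 436 lower against 1 dpci, and 170 and 265 against 3 dpci. Without that plate the log2 fold changes of actc1a were 2.40 and 2.30, with adjusted p-values of 0.409 and 0.628. Without plate 1, 1324 and 790 genes were called, and without plate 3, 420 and 177. DESeq2 called 433 and 203 of the 5624 genes on all plates, 241 and 122 of them higher. With actc1c left aside, it called actc1a, acta2, the major ACTA1 row and TAGLN higher against 1 dpci. Against 3 dpci it called actc1a and acta2. In cardiomyocyte-like cells 32 genes (0.674%) and 20 genes (0.421%) were called, among them 0 of the 5 members other than actc1c in either comparison. At an unadjusted p under 0.05 in that fit, 2 of these 5 were higher and 1 was lower against 1 dpci, and 2 and 1 against 3 dpci. Over all 4746 genes of that fit 7.5% were higher and 5.6% lower against 1 dpci by this rule, and 6.47% and 5.06% against 3 dpci.

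**Figure D1:**
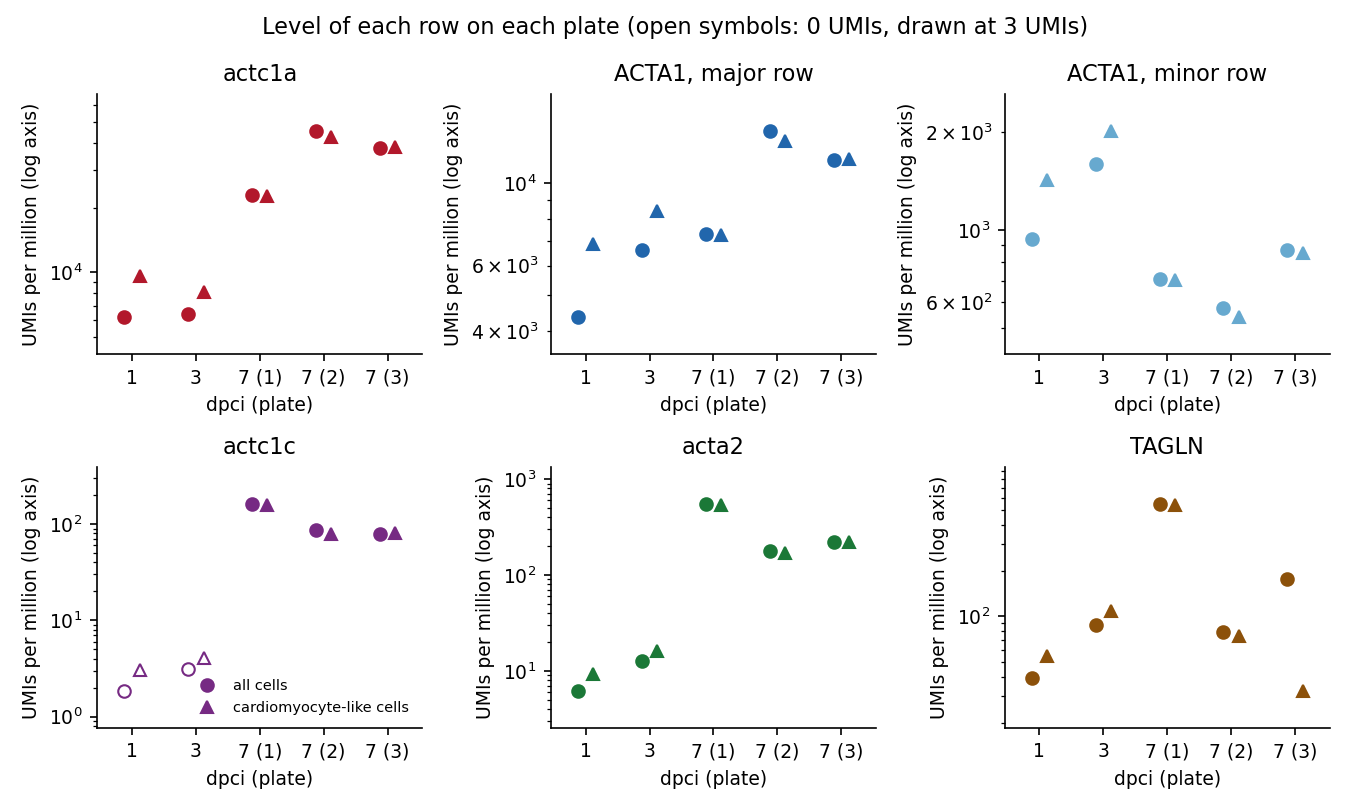
Level of the 6 gene rows on each plate, as CPM (log axis), in all cells (circles) and in cardiomyocyte-like cells (triangles); open symbols mark 0 UMIs and are drawn at the level of 3 UMIs. actc1a, actc1c and acta2 lie higher on all 3 plates of 7 dpci than on both early plates, and the minor ACTA1 row lies lower. How many of all genes order the plates in such a way was not counted. The major ACTA1 row on plate 1 lies below the 3 dpci plate in cardiomyocyte-like cells, and TAGLN at 7 dpci spreads from 78.9 to 546 CPM in all cells.

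The rise of actc1a was seen across the cells of a plate. It was detected in at least 98.6% of cells on every plate. The median cell held 9.91 actc1a UMIs per 1000 at 1 dpci and 8.27 at 3 dpci, against 23.8, 35.6 and 31.9 on the plates of 7 dpci. Even at the 10th percentile the cells of the 7 dpci plates held 11.7, 21.5 and 18.1 per 1000, above the median cell of both early plates. The top 5 cells held 9.82% of the actc1a UMIs at 1 dpci and 9.4% to 11.8% on the other plates. The 26 macrophage-like cells, which should lack cardiac actin, held 1.43 actc1a UMIs per 1000 over all plates. By time this was 1.32 at 1 dpci, 0.906 at 3 dpci and 5.29 in the 3 cells of 7 dpci. A UMI was found in 25 of 26 cells, at a depth 4.75 times their plates' median, so detection alone does not mark expression of actc1a.

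The major ACTA1 row, the more abundant of the skeletal actin rows, was detected in 95.3% to 99.1% of cells and did not pass the test. It held 7020, 6266, 1814, 7509 and 6086 UMIs on the plates of 1 dpci, 3 dpci and 7 dpci (1 to 3). In CPM these are 4369 at 1 dpci, 6599 at 3 dpci and 7296, 13779 and 11523 at 7 dpci, with a mean of 10866 ± 3291 (SD, n = 3). Each plate of 7 dpci lay above both early plates, plate 1 by little over the 3 dpci plate. The log2 fold change of the major ACTA1 row was 1.32 ± 0.35 (SE) against 1 dpci (edgeR adjusted p = 0.059) and 0.72 ± 0.34 against 3 dpci (edgeR adjusted p = 0.374). Without plate 1 of 7 dpci the row was called higher in both comparisons (1.64 and 0.99, edgeR adjusted p = 9.55e-07 and 0.000184), without plate 3 against 1 dpci (1.37, edgeR adjusted p = 0.0303), and without plate 2 in neither. In cardiomyocyte-like cells the values were 0.62 and 0.33 (edgeR adjusted p = 0.502 and 0.836), and there with plain totals they were 0.07 and -0.14, so the direction against 3 dpci turned. Across the 15 other settings the row was called higher in 6 against 1 dpci and in 1 against 3 dpci. The median cell held 4.53 UMIs per 1000 of the major ACTA1 row at 1 dpci, 7.40 at 3 dpci and 6.43, 9.86 and 8.55 at 7 dpci. The middle 50% of cells spanned 1.38 to 12 per 1000 at 1 dpci, the widest such range of the 5 plates.

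The minor ACTA1 row was the 1 member with lower CPM on every plate of 7 dpci than on both early plates, and it did not pass the test. It held 1510, 1517, 177, 314 and 459 UMIs in plate order. These are 940 CPM at 1 dpci, 1597 CPM at 3 dpci and 710, 577 and 869 CPM at 7 dpci, with a mean of 719 ± 146 (SD, n = 3). The highest plate of 7 dpci lay just under the 1 dpci plate. How many of all genes order the plates this way was not counted, so the order is only a description. Its log2 fold change was -0.39 ± 0.31 (SE) against 1 dpci (edgeR adjusted p = 0.561) and -1.15 ± 0.30 against 3 dpci (edgeR adjusted p = 0.104). In cardiomyocyte-like cells the values were -1.03 and -1.53 (edgeR adjusted p = 0.164 and 0.0831). With plain totals in cardiomyocyte-like cells, a setting chosen after seeing the data, they were -1.57 and -1.98 (edgeR adjusted p = 0.0491 and 0.0247), called lower. In all, the minor ACTA1 row was called lower in 2 of the 15 other settings against 1 dpci and in 5 against 3 dpci. Without the cells above 3 times their plate's median depth it was called lower in both comparisons (-1.32 and -1.38, edgeR adjusted p = 0.00577 and 0.00506), and without plate 1 of 7 dpci it was called lower against 3 dpci (-1.09, edgeR adjusted p = 0.00405), as it was with plain totals (-1.75, edgeR adjusted p = 0.0366). On plate 1 of 7 dpci a single cell, also the deepest of its plate, held 60 of the 177 UMIs (34.2%). A UMI of the minor ACTA1 row was found in 71.7% of cells at 1 dpci and 63.1% at 3 dpci, against 18.9%, 33.9% and 37.3% at 7 dpci. With every cell thinned to 1000 UMIs, which leaves 240, 211, 90, 189 and 185 cells in plate order, the shares were 47.7% and 53.6% against 21%, 22.4% and 25.2%. The macrophage-like cells held the minor row in 18 of 26 cells (69.2%) at a median depth of 9486 UMIs, with 0.265 UMIs per 1000, so the share of cells is read as background and the level per UMI is the value to compare.

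The makeup of the actin UMIs differed between the early and the late plates. Of the UMIs of the 5 actin rows, actc1a took 53.8% at 1 dpci and 43.8% at 3 dpci, against 72.5%, 75.7% and 75.0% at 7 dpci (74.4 ± 1.68, SD, n = 3). The major ACTA1 row took 38% and 45.2% on the early plates and 23%, 22.9% and 22.7% at 7 dpci. The minor ACTA1 row took 8.17% and 10.9%, against 2.24%, 0.959% and 1.71%. The 7 dpci plates lay close together in the shares of actc1a and the major row, apart from both early plates. Since the early groups are 1 plate each, no permutation test over plates could go below p = 0.25, and none was run. In cardiomyocyte-like cells alone, actc1a took 53.7%, 43.7%, 72.5%, 75.7% and 75.0% of the actin UMIs in plate order.

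The same shift was seen within single cells. actc1a UMIs per UMI of the major ACTA1 row numbered 1.42 at 1 dpci and 0.971 at 3 dpci, and 3.15, 3.31 and 3.30 at 7 dpci. At 1 dpci 73 of 283 cells (25.8%) and at 3 dpci 112 of 268 cells (41.8%) held more UMIs of the major ACTA1 row than of actc1a. At 7 dpci 7 of 169 (4.14%), 2 of 230 (0.87%) and 7 of 225 cells (3.11%) did. In the median cell actc1a made up 64.7% of both rows' UMIs at 1 dpci, 53.1% at 3 dpci and 78.3%, 78.8% and 78.3% at 7 dpci. These shares do not depend on the library total, as both rows are read in the same cell.

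**Figure D2:**
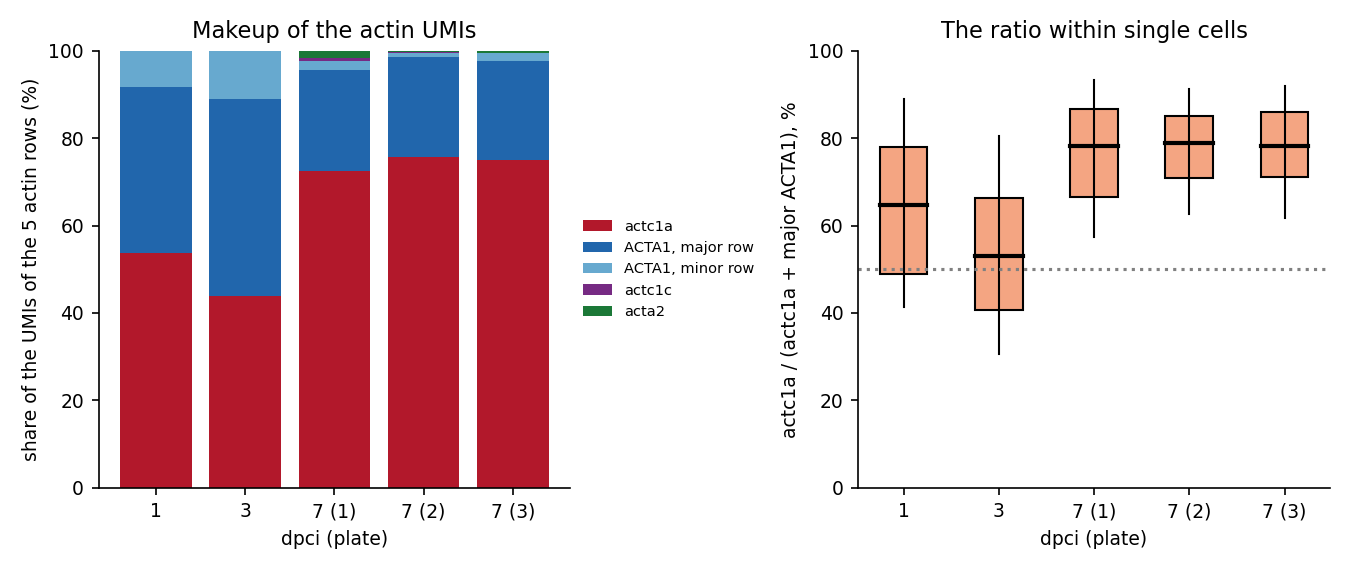
Left, share of the UMIs of the 5 actin rows (%) taken by each row on each plate. Right, actc1a as a percentage of the UMIs of actc1a and the major ACTA1 row in single cells (line, median; box, middle 50% of cells; whiskers, 10th to 90th percentile; dotted line, equal counts). The 3 dpci plate has the lowest median, 53.1%, and the 7 dpci plates lie within 78.3% to 78.8%.

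All 5 actin rows together took 1.49% of the cells' UMIs at 1 dpci, 1.77% at 3 dpci, and 2.79%, 4.59% and 4.08% at 7 dpci. Added up into 1 row, they gave a log2 fold change of 2.05 against 1 dpci (edgeR adjusted p = 0.0145). Against 3 dpci it was 1.71 (edgeR adjusted p = 0.0517). Reads placed in the wrong row among these 5 do not change the sum, but reads dropped for matching several rows would. Whether any were dropped is not known here. In cardiomyocyte-like cells the sum took 2.18% and 2.14% on the early plates and 2.84%, 4.64% and 4.24% at 7 dpci, and was not called (1.36 and 1.32, edgeR adjusted p = 0.115 and 0.148). The sources used here do not say how reads that match several paralogs were assigned, so the split between the actin rows, and between the ACTA1 rows above all, is uncertain, as are the counts of actc1c and acta2 beside far more abundant paralogs. The minor row held 21.5 and 24.2 UMIs per 100 of the major row at 1 and 3 dpci, and 9.73, 4.19 and 7.54 at 7 dpci. Every plate of 7 dpci lay below both early plates in this ratio.

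actc1c, named as another cardiac actin paralog, was counted at 7 dpci only. It held 0 UMIs in the 283 cells of 1 dpci and in the 268 cells of 3 dpci, which allows a share of cells with a UMI of up to 1.06% and 1.12% (3 cells), and the tables of these plates do not list the row. At 7 dpci it held 40, 47 and 42 UMIs, which is 161, 86.2 and 79.5 CPM, with a mean of 109 ± 45.2 (SD, n = 3). Set against a floor of 3 UMIs per early plate, the mean of 7 dpci was at least 58.3-fold higher than 1 dpci and at least 34.5-fold higher than 3 dpci. As the row passed the filter through the 7 dpci plates alone, these levels are a description and no p-value is given for them. A UMI was found in 20.1%, 14.8% and 15.6% of cells, with at most 3 UMIs in a cell, and the spread over cells was that of counting alone (chi-square per degree of freedom of 1.11, 1.05 and 1.00 given each cell's depth). Relative to actc1a there were 7.00, 1.89 and 2.09 actc1c UMIs per 1000 actc1a UMIs, so of the 7 dpci plates the one with the least actc1a had the most actc1c. A single other row, ENSDARG00000077402, had 0 UMIs on both early plates and at least 10 on each plate of 7 dpci; it held 46, 173 and 141 UMIs there and has no symbol in the name table. The reverse, 0 UMIs on all plates of 7 dpci and at least 10 on both early plates, held for 94 rows.

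acta2, the smooth muscle actin gene, rose from near 0 to a low level spread over many cells. It held 10 and 12 UMIs on the early plates, which is 6.22 CPM at 1 dpci and 12.6 CPM at 3 dpci. At 7 dpci it held 136, 98 and 117 UMIs, or 547, 180 and 222 CPM, with a mean of 316 ± 201 (SD, n = 3). All 3 plates of 7 dpci lay far above both early plates, and plate 1 was the highest. The log2 fold change was 5.61 ± 0.92 (SE) against 1 dpci, 48.9-fold (edgeR adjusted p = 0.0108), and 4.61 ± 0.88 against 3 dpci, 24.4-fold (edgeR adjusted p = 0.0421). In cardiomyocyte-like cells the values were 5.03 and 4.22 (edgeR adjusted p = 0.0636 and 0.108), and without plate 2 of 7 dpci they were 5.98 and 4.92 (edgeR adjusted p = 0.409 and 0.628). With plain totals acta2 gave 4.94 against 1 dpci, still called (edgeR adjusted p = 0.0316), and 4.05 against 3 dpci, where the call was lost (edgeR adjusted p = 0.0926). The call against 3 dpci was also lost in cells of at least 1000 UMIs (4.50, edgeR adjusted p = 0.0541) and with mitochondrial genes kept in the totals (4.61, edgeR adjusted p = 0.0563). In all, acta2 was called in 12 of the 15 other settings against 1 dpci and in 9 against 3 dpci.

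A UMI of acta2 was found in 9 of 283 cells (3.18%) at 1 dpci and 7 of 268 (2.61%) at 3 dpci. At 7 dpci it was found in 81 of 169 (47.9%, exact Clopper-Pearson 95% interval 40.2% to 55.7%), 72 of 230 (31.3%, 25.4% to 37.7%) and 75 of 225 cells (33.3%, 27.2% to 39.9%). Such intervals cover counting error only. After thinning to 1000 UMIs the shares were 0.622%, 1.38%, 36.9%, 14% and 14.5% in plate order. No cell held more than 14 UMIs, and the chi-square per degree of freedom over cells was 1.64, 1.17 and 1.17 at 7 dpci, where 1 is the spread of counting alone. None of the 26 macrophage-like cells held a UMI of acta2 (0 of 26, which allows a share of up to 11.5%), and 3 of these cells lay on the 7 dpci plates. Wells under 500 UMIs held 0.491 acta2 UMIs per 1000 on plate 1 of 7 dpci and 0.048 and 0.0435 on plates 2 and 3, the last 2 values being 1 UMI each, and plate 1 was the highest there as in cells.

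TAGLN, the transgelin row, was read in few cells, and single cells held much of its plate totals. It held 63 UMIs or 39.2 CPM at 1 dpci and 83 UMIs or 87.5 CPM at 3 dpci. At 7 dpci it held 136, 43 and 93 UMIs, which is 546, 78.9 and 175 CPM, with a mean of 267 ± 247 (SD, n = 3). The 7 dpci plates overlapped the 3 dpci plate, plate 2 lying below it. The log2 fold change was 2.73 ± 1.02 (SE) against 1 dpci (edgeR adjusted p = 0.154) and 1.58 ± 0.95 against 3 dpci (edgeR adjusted p = 0.528). DESeq2 called TAGLN against 1 dpci (2.78, adjusted p = 0.0287) and not against 3 dpci (1.62, adjusted p = 0.38). edgeR called it against 1 dpci without plate 1 (1.81, adjusted p = 0.0137) and without plate 3 (3.03, adjusted p = 0.0059) of 7 dpci, and not without plate 2 (3.26, adjusted p = 0.409). In cardiomyocyte-like cells TAGLN held 55, 109, 542, 74 and 32.6 CPM in plate order, so plates 2 and 3 lay below the 3 dpci plate (log2 fold changes of 1.90 and 0.93, edgeR adjusted p = 0.674 and 0.911).

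On plate 1 of 7 dpci 1 cell held 70 of the 136 TAGLN UMIs (51.2%) and on plate 3 1 cell held 76 of 93 (81.7%). These were cells of 27535 and 23757 UMIs, against plate medians of 1023 and 2203. The first was cardiomyocyte-like and the second lay in the unnamed cluster. Outside the top cell of each plate, TAGLN numbered 4.46 and 8.47 UMIs per 100000 UMIs at 1 and 3 dpci and 26, 4.49 and 2.68 at 7 dpci, so plate 3 lay below both early plates. Without these top cells the log2 fold changes were 1.84 and 0.85 (edgeR adjusted p = 0.344 and 0.764), a setting chosen after seeing the data. Without all cells above 3 times their plate's median depth they were 0.52 and -0.55, so the direction against 3 dpci turned.

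The share of cells with a TAGLN UMI was lower at 7 dpci, against the direction of the CPM. It was 13.4% at 1 dpci and 14.9% at 3 dpci, against 6.51%, 5.22% and 6.22% at 7 dpci. With cells thinned to 1000 UMIs it was 4.98%, 7.15%, 6.58%, 3.95% and 3.54% in plate order, and no order is read from these values. The chi-square per degree of freedom over cells lay between 3.76 and 11.1, above the 1.00 to 1.64 of actc1c and acta2 at 7 dpci. Macrophage-like cells held a TAGLN UMI in 4 of 26 cells (15.4%), a share above that of all cells on every plate, at their greater depth, so the share of cells is read as background.

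**Figure D3:**
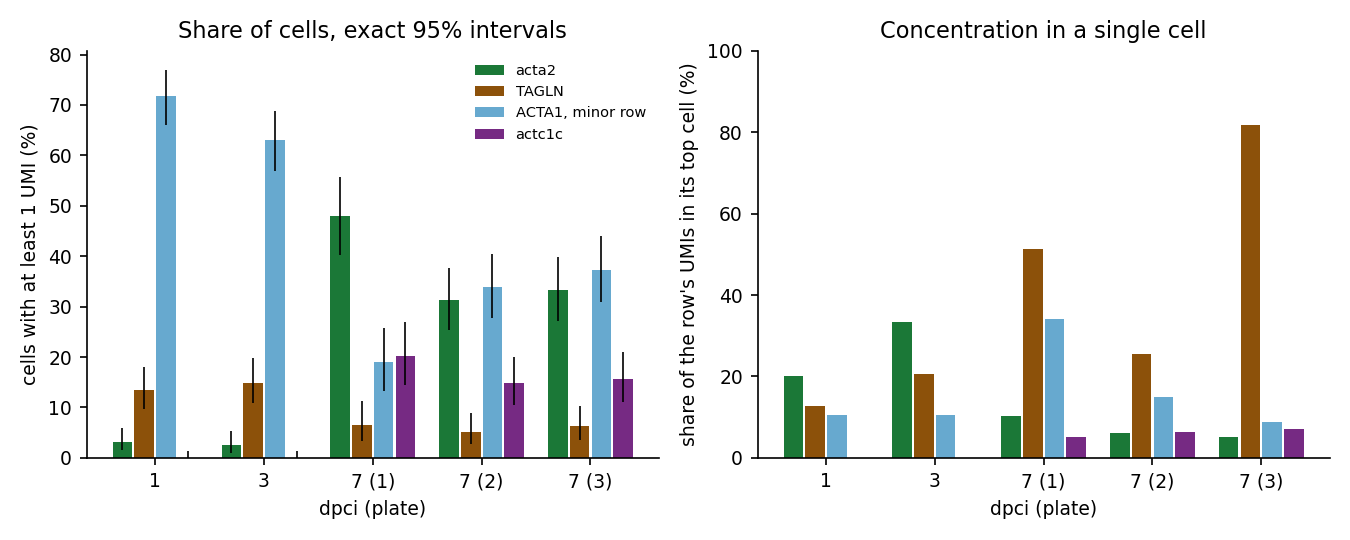
Left, share of cells with at least 1 UMI (%) of acta2, TAGLN, the minor ACTA1 row and actc1c on each plate, with exact 95% intervals (counting error only). Right, share of each row's UMIs (%) found in its top cell. acta2 reached 31.3% to 47.9% of cells at 7 dpci with at most 10.3% of its UMIs in its top cell, while TAGLN was in 5.22% to 6.51% of cells and its top cells held 51.2% and 81.7% of its UMIs on plates 1 and 3.

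Another row carries the symbol TAGLN in the name table (ENSDARG00000033466), and it went the opposite way. It is not one of the 6 and is given because the symbol alone would merge them. It held 429, 102, 4, 2 and 2 UMIs in plate order. Its log2 fold change was -5.35 ± 0.64 (SE) against 1 dpci and -4.03 ± 0.66 against 3 dpci. At 7 dpci it held 16.1, 3.67 and 3.79 CPM, and it passed the filter of a mean of 10 CPM only through the early plates. Its call in all cells is therefore no support, and the values are a description. At 1 dpci 250 of its 429 UMIs lay in the 13 macrophage-like cells and 141 in the unnamed cluster, and in cardiomyocyte-like cells alone it was not called (edgeR adjusted p = 0.225 and 0.508).

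acta2 and TAGLN are both used as smooth muscle markers, and few cells held the 2 together. At 7 dpci 4, 4 and 7 cells held both, against 5.27, 3.76 and 4.67 expected if detection were independent, and Spearman's rho over cells was -0.09, -0.01 and 0.07. A list of 12 other smooth muscle or mural rows was detected with 11, 9, 5, 6 and 9 rows in plate order. At 7 dpci its contractile genes other than MYL9 were at or near 0. CSPG4, a pericyte proteoglycan gene, was low on plates 1 and 2 as well and higher on plate 3. MYH11 (smooth muscle myosin heavy chain) held 27 and 6 UMIs on the early plates and 0, 5 and 1 at 7 dpci. CNN1 (calponin) held 3 and 3, then 0, 0 and 1. MYLK (myosin light chain kinase) held 0 and LMOD1 (leiomodin) 1 UMI in all cells of 7 dpci. CSPG4 held 9 and 6 UMIs on the early plates and 5, 1 and 14 at 7 dpci, and NOTCH3, a receptor of mural cells, held 7 and 3, then 0, 0 and 6. The mural row rgs5b held 18 and 10 UMIs, then 0, 0 and 2, and KCNE4 held 16 and 14, then 3, 2 and 0. The list's summed level was 2.16 and 2.64 UMIs per 1000 on the early plates and 4.68, 3.70 and 3.70 at 7 dpci, and most of it came from the MYL9 rows below. Cardiomyocyte-like cells held 136, 98 and 116 of the 136, 98 and 117 acta2 UMIs on the plates of 7 dpci. The part of smooth muscle cells in the acta2 result was not tested beyond these values. acta2 and actc1c were found together in 23, 12 and 17 cells at 7 dpci, against 16.3, 10.6 and 11.7 expected.

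Over single cells, rank correlations between actc1a and the major ACTA1 row were higher on the early plates than at 7 dpci. Spearman's rho between actc1a and the major ACTA1 row over the cells of a plate was 0.65 at 1 dpci, 0.42 at 3 dpci and 0.24, 0.06 and 0.16 at 7 dpci. In cardiomyocyte-like cells alone it was 0.52, 0.27, 0.23, 0.04 and 0.14. Between the ACTA1 rows rho was 0.44 and 0.51 on the early plates and 0.03, 0.23 and 0.22 at 7 dpci. These values describe cells that share a library, depth and total, and carry no test. actc1a and nppa, the gene of the sort reporter, gave 0.21, 0.12, -0.04, -0.04 and 0.01 in plate order.

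**Figure D4:**
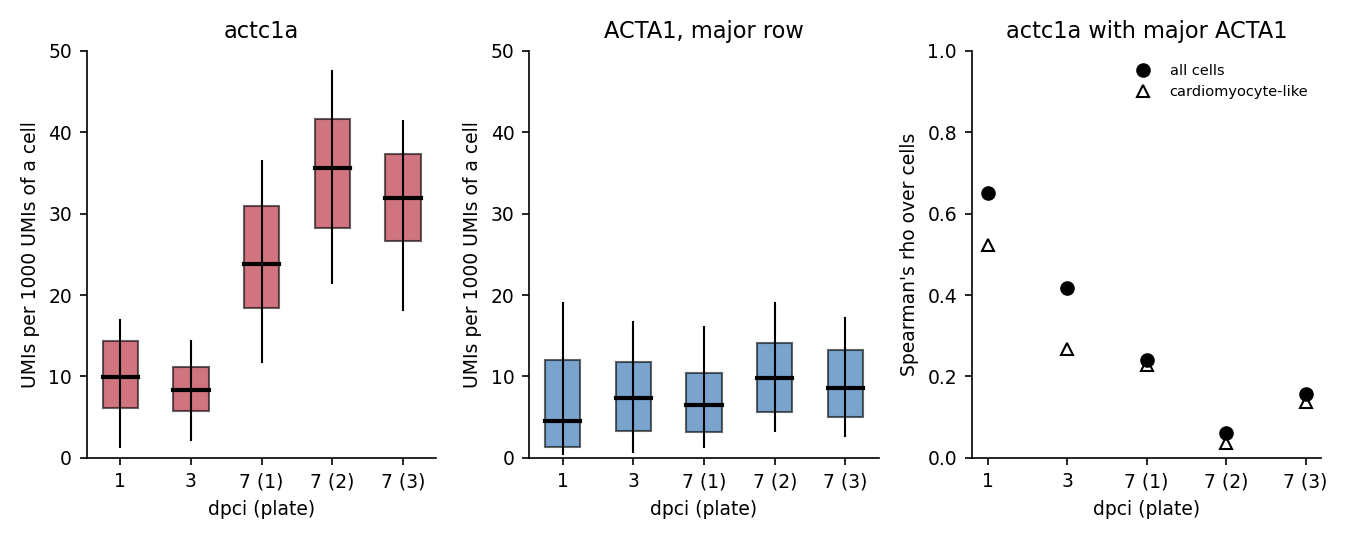
UMIs per 1000 UMIs of a cell for actc1a (left) and the major ACTA1 row (middle) by plate (line, median; box, middle 50% of cells; whiskers, 10th to 90th percentile), and Spearman's rho between them over the cells of each plate (right; circles, all cells; triangles, cardiomyocyte-like cells). The actc1a median goes from 9.91 to between 23.8 and 35.6, that of the major ACTA1 row from 4.53 to between 6.43 and 9.86, and rho falls from 0.65 to between 0.06 and 0.24.

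The genes most like actc1a over cells, by the mean of Spearman's rho over the 5 plates, were cmlc1 (0.47, range 0.36 to 0.58), a cardiac myosin light chain gene, and MYL7 (0.46, 0.31 to 0.60), the regulatory light chain of the heart. They were followed by the mitochondrial dehydrogenases MDH2 (0.33) and IDH2 (0.31) and by the major ACTA1 row (0.30). The major ACTA1 row was most like cmlc1 (0.31), actc1a, the minor ACTA1 row (0.29) and MYL7 (0.28). For acta2 the first 5 were ENSDARG00000086611 (0.14), PDP1 (0.13), dhrs4 (0.13), KHSRP (0.125) and CLPP (0.12), values that in counts this sparse name no partner. TAGLN was most like ANXA2 (0.22, range 0.08 to 0.44), an annexin that binds membranes and actin. It was followed by ENSDARG00000093937 (0.195), CRLF3 (0.19), SPARC (0.19), a matrix protein gene of stromal cells, and CYB5R3 (0.19), and these counts are sparse as well.

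Between 3 and 1 dpci, with 1 plate each, there is no replicate check, and log2 ratios are given with exact 95% intervals for counting error only. Over 5619 genes the interval lay above 0 for 17.9% and below 0 for 21.3%. The ratio was 0.60 (0.55 to 0.64) for the major ACTA1 row, 0.77 (0.66 to 0.87) for the minor row and 1.16 (0.67 to 1.65) for TAGLN. For acta2 it was 1.02 (-0.31 to 2.39), which these counts cannot separate from 0. For actc1a it was 0.05 (0.00 to 0.10), and the sign turned with plain library totals (-0.06), in cardiomyocyte-like cells (-0.25) and without the cells above 3 times the median depth (-0.37). The sum of the 5 actin rows gave 0.35, 0.05 in cardiomyocyte-like cells and -0.17 without the deep cells. Without the deep cells the ratios of the ACTA1 rows were 0.01 and 0.06, while that of TAGLN was 1.08.

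Both cytoplasmic beta-actins fell against 1 dpci. Of 3 tested rows of other actins, 2 fell against 1 dpci and 1 against 3 dpci, and the median log2 fold change was -1.69 and -0.98, against -0.13 and -0.09 over all genes tested. actb1, a cytoplasmic beta-actin gene, held 2153, 861.5, 161, 106 and 168.5 CPM in plate order, log2 fold changes of -3.90 ± 0.32 (SE) and -2.57 ± 0.32 (edgeR adjusted p = 0.00283 and 0.0129). actb2, the other beta-actin gene, held 6181, 3773, 1874, 1532 and 2344 CPM in plate order and fell against 1 dpci (-1.69 ± 0.26, edgeR adjusted p = 0.00975). In cardiomyocyte-like cells neither was called (actb1 -2.21 and -1.54, edgeR adjusted p = 0.0659 and 0.181, actb2 -0.80 and -0.28, edgeR adjusted p = 0.207 and 0.818). The row named ACTC1 (ENSDARG00000057911), a possible partner of actc1a in read sharing, held 395, 704.5, 857, 191 and 271 CPM in plate order and was not called (0.13 and -0.70).

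Among 5 tested rows of smooth muscle contractile genes, 2 rose against 1 dpci and 1 against 3 dpci, all named MYL9, the regulatory light chain of non-muscle and smooth muscle myosin. MYL9 (ENSDARG00000008030) held 892 and 1109 CPM on the early plates and 2811, 3332 and 2783 at 7 dpci, log2 fold changes of 1.74 ± 0.28 (SE) and 1.42 ± 0.28 (edgeR adjusted p = 0.0106 and 0.0442). MYL9 (ENSDARG00000038123) held 457 and 920 CPM, then 2457, 1499 and 1764, and rose against 1 dpci (2.06 ± 0.37, edgeR adjusted p = 0.0168). In cardiomyocyte-like cells neither was called: the first row gave 1.09 and 1.06 (edgeR adjusted p = 0.0957 and 0.128) and the second 1.43 and 0.69 (edgeR adjusted p = 0.134 and 0.521). Read sharing between these rows cannot be judged either. As for all genes, the calls in these lists were lost without plate 2 of 7 dpci.

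Of 36 tested actin regulators and binders, 0 rose in either comparison in edgeR, 3 fell against 1 dpci and 0 fell against 3 dpci. At an unadjusted p under 0.05, 5 were higher and 10 lower against 1 dpci, and 0 and 6 against 3 dpci. Over all genes tested that was 516 higher (9.17%) and 721 lower (12.8%) against 1 dpci, and 361 (6.42%) and 499 (8.87%) against 3 dpci. DESeq2 called 4 lower against 1 dpci and 0 otherwise. The list's median log2 fold change was -0.74 and -0.31. Those that fell were pfn1 (profilin, which feeds actin monomers to growing filaments; -2.70 ± 0.35), ARPC1B (-3.71 ± 0.73) and the ARPC5 row ENSDARG00000019062 (-4.96 ± 1.08), subunits of the filament-branching Arp2/3 complex. Their edgeR adjusted p-values were 0.0046, 0.0231 and 0.0308. In cardiomyocyte-like cells pfn1 gave -0.54 and ARPC1B -0.70 (edgeR adjusted p = 0.665 and 0.944). The ARPC5 row, with 130, 11, 2, 1 and 0 UMIs in all cells in plate order, was not among the genes tested in that fit. Its mean at 7 dpci was 3.29 CPM in all cells, so it passed the filter only through the early plates. Its call is therefore no support. The macrophage-like and unnamed clusters lay mostly on the early plates, and their part in these values was not tested beyond the fit in cardiomyocyte-like cells.

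SRF with its MRTF partners is the transcription factor pathway known to drive muscle actin genes. Of its 8 tested rows 1 rose against 1 dpci and 0 changed against 3 dpci (1 higher at an unadjusted p under 0.05, and 0 called by DESeq2), with medians of 0.58 and 0.60. It was FHL2 (ENSDARG00000042018), a LIM protein of the heart, with 5 and 12 UMIs on the early plates and 12, 42 and 32 at 7 dpci. Its log2 fold change was 4.26 ± 0.89 (SE, edgeR adjusted p = 0.0269). At 3.11 and 12.6 CPM on the early plates, it passed the filter of a mean of 10 CPM only through the 7 dpci plates. Its call is therefore no support. In cardiomyocyte-like cells FHL2 gave 4.09 and was not called (edgeR adjusted p = 0.0953). SRF itself (ENSDARG00000053918) gave 0.47 and 0.17 (edgeR adjusted p = 0.842 and 0.975).

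**Figure D5:**
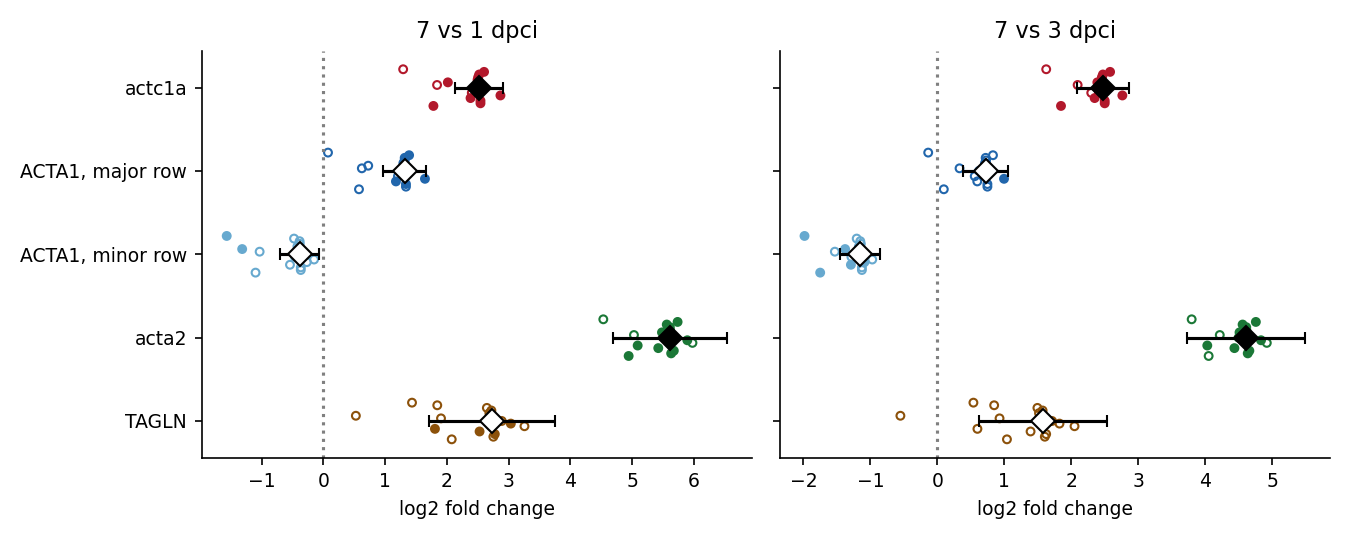
Log2 fold changes of 5 members at 7 dpci against 1 dpci (left) and 3 dpci (right). Diamonds with bars, all cells with TMM ± SE; small circles, the 15 other settings; filled symbols, adjusted p under 0.05. actc1a and acta2 lie above 0 in all settings, the minor ACTA1 row lies below 0, the major ACTA1 row and TAGLN cross 0 against 3 dpci. actc1c, at 0 on the early plates, has no bounded fold and is left out.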

How the data were processed

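Single nppa:mCitrine cells were sorted into 384-well plates, and their 3′ transcript ends were sequenced by SORT-seq as 75 bp paired reads. Per the study's methods, reads were mapped to the Zv9 build (BWA 0.6.2 in the submitters' processing notes) and UMIs were counted per gene and well. The deposited tables hold expected counts: the authors corrected the UMI count of each gene and cell for collisions among 4096 UMIs, and turned back all values came out whole within 0.02. How reads matching several genes were assigned and which annotation was used are not given in the sources used here. A table lists a gene only where its plate has a UMI of it. Zebrafish identifiers were named from a table of symbols (14285 of 17997, 79.4%).

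Counts of spike-ins and of mitochondrial genes were dropped, wells of at least 500 UMIs were kept as cells (the filter in the study's methods), and cells were clustered in Seurat 5.3.0 (500 variable genes, 8 dimensions, resolution 0.7). Clusters were named from marker lists. Doublets were not called; the sort placed 1 cell per well, and the macrophage-like cells are deeper than the rest. Of the well barcodes, 29 were kept on all 5 plates, and 0 pairs of the same well held the same counts. UMIs were summed per plate, rounded and tested with edgeR 4.0.16 (R 4.3.3; quasi-likelihood, TMM, mean CPM of 10 or more, Benjamini-Hochberg over all genes tested, two-sided, threshold 0.05), and the scripts were tested on simulated data. Depth runs from 282358 to 1238176 UMIs per plate, and exact intervals and the floor of 3 counts cover counting error only. Alternatives were scaling, DESeq2 1.42.0, the filters, the choice of cells, leaving out each plate, and adding up the actin rows.

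The members and the gene lists were chosen with earlier results of these data known. Named beyond the members are the called genes of the lists and, for actc1a, acta2 and TAGLN, the 5 genes with the highest mean rho over plates, under the same filter. The genes most like the major ACTA1 row, the other TAGLN row, the ACTC1 row, SRF, nppa, the smooth muscle markers and ENSDARG00000077402 were named after their values were seen.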

Additional observations from a re-analysis of the deposited data

Results flagged for a closer look

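A signal of actc1a was found in data that the comparisons do not use, the wells under 500 UMIs. These wells held 7.65 actc1a UMIs per 1000 at 1 dpci (101 wells), 6.96 at 3 dpci (116 wells), and 21.2 (215 wells), 30.7 (154 wells) and 25 (159 wells) on plates 1 to 3 of 7 dpci. Each value lay below the median cell of its own plate, and all 3 plates of 7 dpci lay above both early plates, as in cells. In the macrophage-like cells of all plates the level was 1.43 per 1000. It was 1.32 in 13 cells at 1 dpci, 0.906 in 10 cells at 3 dpci and 5.29 in 3 cells at 7 dpci, so it too was highest at 7 dpci. The source of the counts in these wells was not tested.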

How the results depend on the processing

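Of the tests of the 6 members and of the sum of the actin rows under the alternatives, 144 kept direction and side of the threshold, 20 lost the call, 18 gained one and 2 turned direction. These counts include actc1c, called in 14 and 13 of the 15 other settings, whose calls are no support. They therefore overstate how stable the tests of the other members were. As a mean over cells, a value with no test, 8 of 10 moved from the edgeR log2 fold change by at least its SE and 1 turned direction. Against 1 dpci the count of 421 called genes became 697 with no CPM filter, 249 in cells of at least 1000 UMIs, 32 in cardiomyocyte-like cells (48 there with plain totals), 985 with edgeR's newer quasi-likelihood mode, 717 without the top TAGLN cells, and 0 to 1324 with 1 plate of 7 dpci left out. Against 3 dpci the 105 called genes became 203 with DESeq2, 311 with no filter, 55 in cells of at least 1000 UMIs, 20 in cardiomyocyte-like cells (27 with plain totals), 294 without cells above 3 times the median depth, 268 with the newer mode, 275 without the top TAGLN cells, and 0 to 790 with 1 plate left out. Plain totals moved the split of calls to 49 higher and 497 lower (from 157 and 264), and 11 and 109 (from 36 and 69). The newer mode, plain totals in cardiomyocyte-like cells and the setting without top TAGLN cells were chosen after seeing the data.

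Against 3 dpci TAGLN turned to -0.55 without the deep cells and to -0.45 as a mean over cells, and the major ACTA1 row to -0.14 in cardiomyocyte-like cells with plain totals. At 3 against 1 dpci actc1a turned to -0.0645 with plain totals, -0.25 in cardiomyocyte-like cells, -0.37 without the deep cells and -0.33 in cardiomyocyte-like cells with plain totals, and the sum of the actin rows to -0.17 without the deep cells and -0.0346 in cardiomyocyte-like cells with plain totals. The cause of these changes was not tested.

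No paired analysis was possible because the plates of 1 and 3 dpci carry no replicate number. With 1 plate at each early time, the spread used in the tests came from the 3 plates of 7 dpci alone, and the lone plates are assumed to vary like them. Depth limits actc1c, acta2 and TAGLN most, since the early plates held 83 UMIs or fewer of each.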

Other observations

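Cells with at least 5 TAGLN UMIs numbered 1, 3, 4, 4 and 1 in plate order and held 12.7%, 42.2%, 94.1%, 65.1% and 81.7% of their plate's TAGLN UMIs. Their median depth was 8039 UMIs on plate 1 of 7 dpci, against 1016 in the other cells of that plate, and 1996 on plate 2, against 2304 in the others. Together they held 0 acta2 UMIs at 1 dpci, at 3 dpci and on plate 2 of 7 dpci, 5 on plate 1 and 1 on plate 3. Their summed level of the 12 other smooth muscle or mural rows lay above that of the other cells on every plate. It was 3.09 against 2.16 UMIs per 1000 at 1 dpci and 2.90 against 2.64 at 3 dpci. At 7 dpci it was 9.69 against 3.73, 4.44 against 3.69 and 5.34 against 3.64. Their level of MYL7, the regulatory light chain of the heart, lay below that of the other cells on every plate (16.5 against 32.2 UMIs per 1000 at 1 dpci, 32.7 against 43.8 at 3 dpci, and 44.4 against 97.8, 61.8 against 78.6 and 3.53 against 75.0 at 7 dpci). These cells were chosen by their TAGLN counts, so the values are a description.

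Wells under 500 UMIs on plate 1 of 7 dpci also held 21 acta2 UMIs in 17 of 215 wells and 6 actc1c UMIs in 6 wells, while plates 2 and 3 held 1 acta2 UMI each and 0 of actc1c in 154 and 159 wells.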
